A study of Bos taurus with 12 samples.

Results

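Hydrocortisone and progesterone were the 2 steroids of the reduced differentiation medium (rDM), and the comparison described here was rDM 0% HC/PR, which lacked both, against the full rDM. It took 6 of the 12 libraries of the series, 3 per medium, chosen by their medium label and paired by donor letter (A, B and C). Each donor gave 1 library of each medium, from stromal vascular cells of Belgian Blue cattle, isolated from fat under the skin of the brisket, which the labels call MSC. The cells were harvested on day 12 of differentiation in the serum-free base DMAD. The full rDM held insulin at 10 µg/mL, rosiglitazone at 5 µM, hydrocortisone at 25 nM and progesterone at 17 nM. rDM 0% HC/PR kept insulin and rosiglitazone, so both media carried the same PPARγ agonist. The sex and age of each donor were not used here, and a difference between donors is one between animals as well as between preparation batches, since batch 1, 2 and 3 were donors A, B and C. The steroids were removed together, so the data cannot tell apart the loss of one from the loss of the other.

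Hydrocortisone is a glucocorticoid. It enters the cell, binds the glucocorticoid receptor (a ligand-activated transcription factor kept in the cytoplasm by chaperones), and the receptor then moves to the nucleus and raises or lowers transcription of its target genes. Progesterone acts through a related receptor of the same family and can also bind the glucocorticoid receptor. Glucocorticoids are common in adipogenic cocktails because they help to start the transcription factor cascade that ends with PPARγ, the receptor that rosiglitazone activates directly. The deposited tables name genes by Ensembl identifiers, and 0 of 22372 gene identifiers and 0 of 38030 transcript identifiers could be paired with a symbol from the reference given. Glucocorticoid target genes, adipocyte genes and markers of other cell types were therefore not analysed here, and the functions of the genes below cannot be given. Whether the libraries hold the labelled cell type was likewise not checked against markers.

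Long-read cDNA sequencing of polyadenylated RNA gave 1153853, 673121 and 424759 estimated reads in rDM of donors A, B and C. The corresponding HC/PR-free libraries held 631624, 388130 and 535806. In the reads behind the gene table, depth was 1.84 times higher in rDM for donor A and 1.76 times higher for donor B, but lower for donor C, at 0.795 of the HC/PR-free library. In the batch-corrected gene table, values are CPM (reads scaled to a fixed library total). Reads given for genes are whole counts recovered from this table, so they are batch-adjusted counts rather than sequenced reads. The floor of detection, taken as 3 reads, was worth from 2.71 CPM in rDM A to 7.98 CPM in the HC/PR-free library of donor B. The name of each library also held a number, 1 or 2, taken here as its sequencing pool, which the sample labels do not state. Pair A lay within pool 1 and pair C within pool 2, while pair B had its rDM library in pool 1 and its HC/PR-free library in pool 2.

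By the main test, few genes passed the threshold. Of 9267 genes tested by limma on log2(CPM + 1), with donor as a block and all 12 libraries sharing the estimate of spread, 2 passed a Benjamini-Hochberg adjusted p of 0.05, which is 0.0216% of those tested. One gene was lower and the other was higher without the steroids. The count depended on the test: it was 2 by edgeR on the recovered reads with its filter and 82 without, 19 by DESeq2 with donor as a block and 24 on medium alone, and 0 of 2284 by limma when at least 10 reads were asked for in every library, of which 180 had an unadjusted p under 0.05. This last filter removes the lower gene, which had 0 reads without the steroids, so it could not be called. The higher gene kept its log2 fold change of 1.77 there (limma adjusted p = 0.0535). At an unadjusted p under 0.05 there were 498 genes, 5.37% of those tested, where 5% would be reached with no difference, and they were split evenly, with 245 higher and 253 lower. A further 6 genes, 3 of them higher, had an adjusted p between 0.05 and 0.1 by limma. Over all genes tested, the median absolute log2 fold change was 0.37. With bulk RNA, fewer cells that express a gene and less of its RNA per cell cannot be told apart. Each medium had 1 library per donor. With donor as a block, the limma p-values measure how differences between media vary among the 3 donors, estimated over all 12 libraries.

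ENSBTAG00000004293 fell to 0 reads in every HC/PR-free library. Its level in rDM was 25.3 CPM in donor A, 183 CPM in donor B and 228 CPM in donor C, from 28, 121 and 95 reads. All rDM libraries were thus well above their own floors, and the groups did not overlap, although donor A was far below the other donors. The mean of 145 ± 107 CPM (SD, n = 3) in rDM stood against a floor that averaged 6.23 CPM in the HC/PR-free libraries. By these means the gene was at least 23.3-fold lower. This bound does not hold within each donor. The floors were 4.98, 7.98 and 5.73 CPM in donors A, B and C, so the bound was much smaller in donor A. The fitted log2 fold change was -6.69 (SE 0.58, limma adjusted p = 0.000234), a value that depends on the pseudocount because one group was at 0. The gene was still read in the media that lacked other components. It stood at 59.4, 80.4 and 362 CPM without insulin and at 15.2, 30.6 and 78.7 CPM without rosiglitazone (donors A, B and C). Set directly against these, the HC/PR-free libraries were lower by a log2 fold change of -6.92 against insulin-free (limma adjusted p = 0.000154) and of -5.10 against rosiglitazone-free medium (limma adjusted p = 0.000187). These fitted values also depend on the pseudocount, since the HC/PR-free libraries were at 0. Without donor C, the comparison with rDM kept its direction but missed the threshold (log2 fold change -6.12, limma adjusted p = 0.0644).

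ENSBTAG00000014713 lost nearly all of its reads, but it did not pass the test against rDM. It was read 33, 8 and 61 times in rDM of donors A, B and C, or 29.8, 12.1 and 147 CPM. Without the steroids it was read 1, 2 and 0 times, or 1.66, 5.32 and 0 CPM. The groups did not overlap, yet donor B differed little, by a log2 pair difference of -1.05 against -3.53 in donor A and -7.20 in donor C. Summed over donors and scaled to library totals, its reads were 23.4-fold lower without the steroids, with an interval of 7.77 to 115 that covers counting error only. Donor C held 61 of the 102 rDM reads, and the ratio was 7.56 (2.41 to 38.1) without donor C and 69.4 (12.2 to 2771) without donor B. The log2 fold change was -3.93 (SE 0.78, limma adjusted p = 0.154). It was -2.29 without donor C (limma adjusted p = 1) and -5.37 without donor B (limma adjusted p = 0.0289), and the threshold was passed in 5 of 22 alternatives. With 3 reads left without the steroids, the fitted value depends on the pseudocount, being -2.09 with a pseudocount of 10 and -5.26 with 0.1, and the fitted values against the other media below depend on it too. The gene was read at 82.8 to 150 CPM in the 3 insulin-free libraries and at 65.5 to 85.7 CPM in the 3 rosiglitazone-free libraries. Here the HC/PR-free libraries were lower by a log2 fold change of -5.57 against insulin-free (limma adjusted p = 0.00337) and of -4.95 against rosiglitazone-free medium (limma adjusted p = 0.00269), so the gene passed the threshold in these contrasts and not in that with rDM.

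ENSBTAG00000022155, the gene that rose, was abundant in every library. Its level in rDM was 527, 656 and 476 CPM in donors A, B and C, and without the steroids it was 1591, 1788 and 2305 CPM. The lowest HC/PR-free library stood well above the highest rDM library. Means were 553 ± 92.8 CPM and 1894 ± 369 CPM (SD, n = 3), and the log2 fold change was 1.77 (SE 0.25, limma adjusted p = 0.0277), with a 95% interval of 2.36- to 4.93-fold. Each donor rose, by log2 differences of 1.59, 1.45 and 2.27. The size of the rise changed little with the processing, from 1.51 to 1.93 over 24 alternatives, while the adjusted p ranged from 1.04e-06 to 0.633 and passed the threshold in use in 9 of them. Without donor C the limma adjusted p was 0.633 and without donor A it was 0.268, and leaving out the rDM library of donor A or C, or any 1 of the HC/PR-free libraries, gave values from 0.0827 to 0.264. With the sequencing pool in the fit the log2 fold change was 1.65 (limma adjusted p = 0.224). The gene was high in the medium without rosiglitazone too, at 1430, 2721 and 2305 CPM, and the HC/PR-free libraries differed from these by less than the spread between libraries (log2 difference -0.15, SE 0.25, limma adjusted p = 0.867). Without insulin it stood at 389, 301 and 566 CPM, so the HC/PR-free libraries were higher than these by a log2 fold change of 2.21 (limma adjusted p = 0.00108).

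ENSBTAG00000019018 appeared in the HC/PR-free medium and was nearly unread elsewhere. It had 81, 27 and 39 reads without the steroids in donors A, B and C, or 134, 71.8 and 74.5 CPM, and 0, 1 and 0 reads in rDM. Every HC/PR-free library was above every other library of the series. The insulin-free libraries held 0, 4.47 and 0 CPM and the rosiglitazone-free libraries 0, 18.4 and 0 CPM, so that the few reads outside the HC/PR-free medium were all from donor B. The ratio of summed reads, scaled to library totals, was 214, with a counting interval of 37.8 to 8508 that reflects a single read in rDM, and it was 79.1 (13.7 to 3172) without donor A. Without donor B, which held that read, rDM had none. The log2 fold change of 6.06 (SE 0.95) had a limma adjusted p of 0.0644, which missed the threshold, and one of 0.0489 by edgeR's quasi-likelihood test on the recovered reads. The fitted value depends on the pseudocount, being 3.25 with a pseudocount of 10 (limma adjusted p = 0.00523) and 8.47 with 0.1 (limma adjusted p = 0.391), and the threshold was passed in 7 of 21 alternatives. Against insulin-free and rosiglitazone-free medium, the HC/PR-free libraries were higher by log2 fold changes of 5.69 (limma adjusted p = 0.0112) and 5.08 (limma adjusted p = 0.0101).

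**Figure D1:**
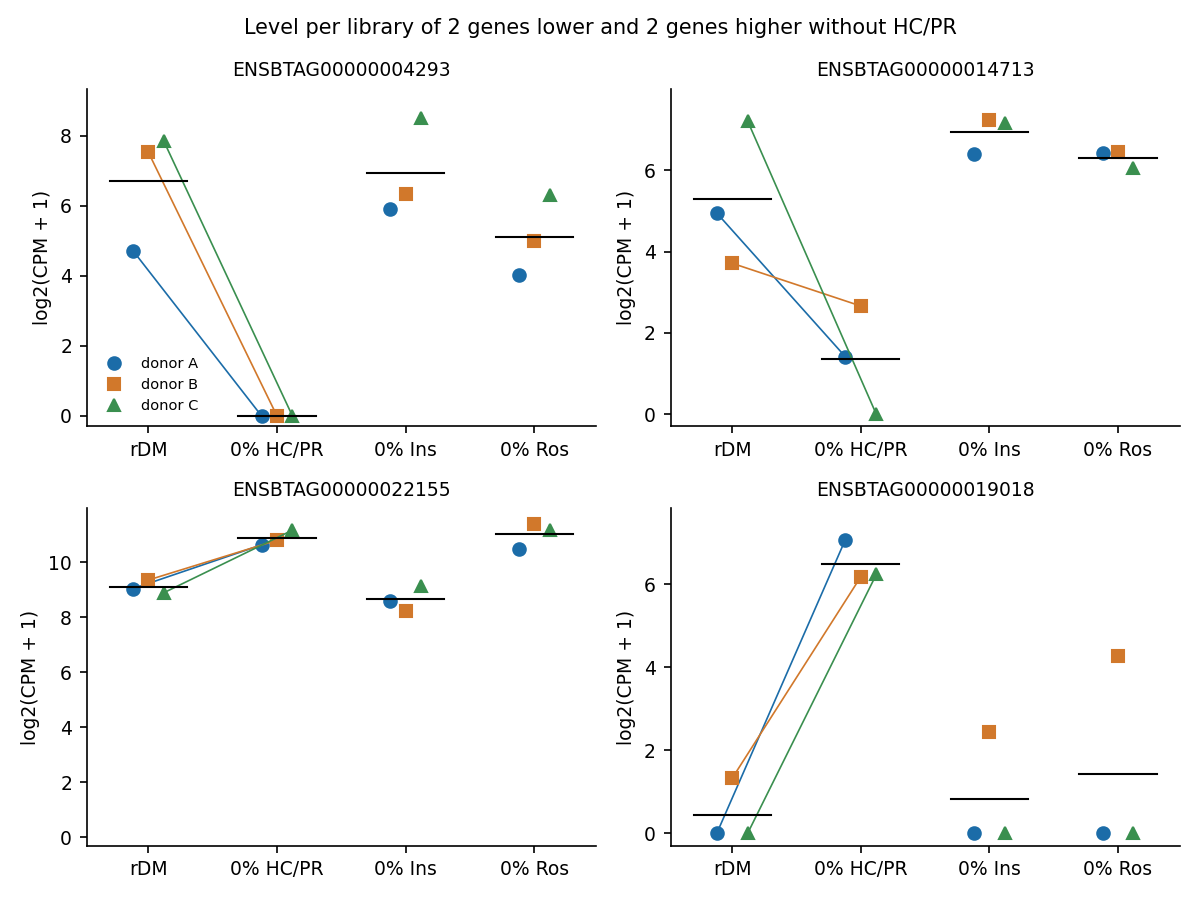
Level of the 4 named genes in each of the 12 libraries, as log2(CPM + 1), by medium; points are donors, lines join the rDM and HC/PR-free libraries of a donor, and bars are means of 3 libraries. ENSBTAG00000004293 sits at 0 in all 3 HC/PR-free libraries, and ENSBTAG00000019018 is above 70 CPM in these 3 alone.

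Complete presence or absence was rare. Of 6361 genes with at least 3 reads in each rDM library, 5 (0.0786%) had no read in any HC/PR-free library. Of 5845 genes with at least 3 reads in each HC/PR-free library, 3 (0.0513%) had none in rDM. With at least 10 reads asked for, ENSBTAG00000004293 was the only gene left of 3459, and in the other direction 0 of 3069 remained. Removing insulin or rosiglitazone, compared with the same rDM libraries, left 9 and 33 genes without a read at the limit of 3 reads. At 10 reads the numbers were 0 and 14. Transcripts not corrected for batch differ from these genes in kind as well as in correction, and more of them were lost. At 3 reads, 21 of 5752 were read in rDM only and 7 of 5103 in the HC/PR-free medium only. At 10 reads these were 4 of 3201 and 1 of 2715.

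A rule with no test asked which genes moved at least 2-fold in the same direction in every donor, among the 3915 genes with a mean of at least 20 CPM over the 6 libraries. It found 21 genes, of which 9 were higher (0.23%) and 12 were lower (0.307%) without the steroids. All 4 genes above were among them. The higher genes included abundant ones. Their median level was 933 CPM, and 5 of 9 had a mean of at least 100 CPM. The lower genes had a median level of 60.0 CPM, and 2 of 12 reached 100 CPM. Fold changes on the log2(CPM + 1) scale started at 2.41 in the higher genes, with a median of 3.41, and at 2.19 in the lower genes, with a median of 3.18. The largest were those of ENSBTAG00000019018 and ENSBTAG00000004293, whose fitted values depend on the pseudocount, and with the latter at its bound of 23.3-fold the median of the lower genes was again 3.18. The 3 HC/PR-free values did not overlap with the 3 rDM values in 9 of 9 higher genes and in 10 of 12 lower genes. The rule itself favours this, so nothing is read from it. Of all 3915 genes, 282 (7.2%) had every HC/PR-free library above and 417 (10.7%) every one below the rDM libraries.

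The most abundant of the higher genes went from 4386, 3113 and 2409 CPM in rDM to 10956, 14116 and 20650 CPM in the HC/PR-free medium (donors A, B and C). The groups did not overlap, with the smallest difference in donor A and the largest in donor C, and the fitted log2 fold change was 2.20 (SE 0.36, limma adjusted p = 0.0652). The most abundant of the lower genes went from 242, 382 and 485 CPM to 101, 101 and 176 CPM (log2 fold change -1.54, SE 0.26, limma adjusted p = 0.0862). Neither passed the test.

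**Figure D2:**
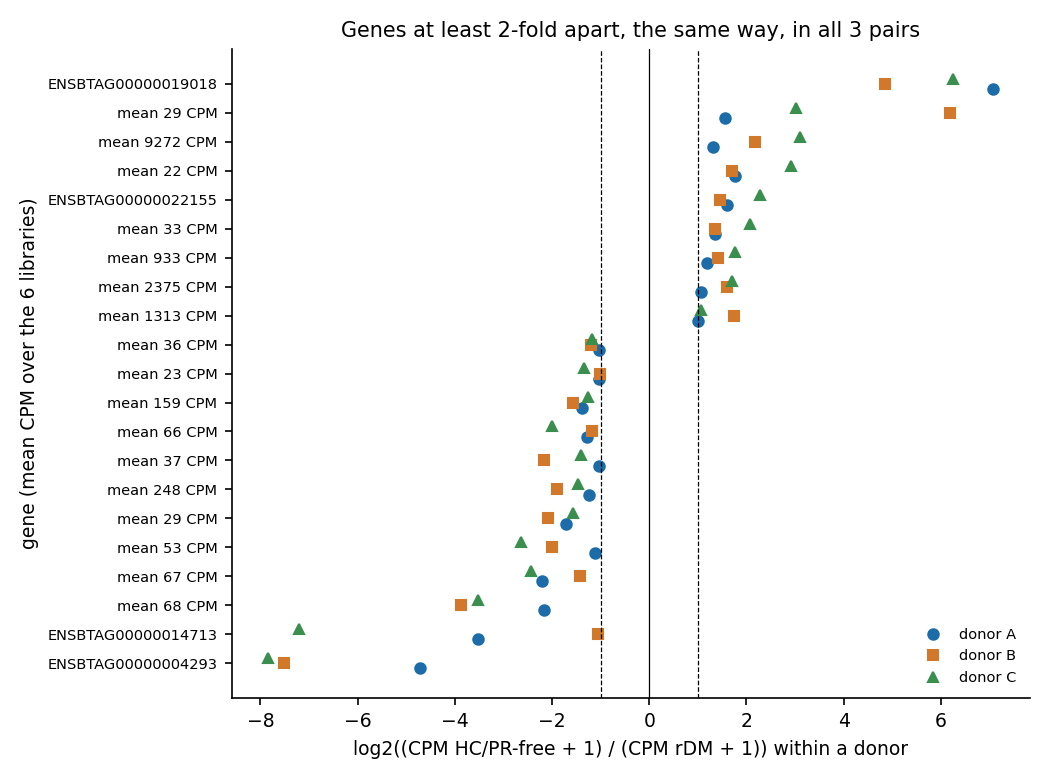
Log2 ratio of HC/PR-free to rDM CPM (pseudocount 1) within each donor for the 21 genes that moved at least 2-fold the same way in all 3 pairs; dashed lines mark 2-fold, and genes without a printed identifier are labelled by mean CPM. Differences of most genes lie between 2- and 8-fold, and the donors of ENSBTAG00000014713 are the farthest apart, from -1.05 to -7.20.

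The pairs differed in which genes moved. Taken alone, donor A had 387 genes at least 2-fold apart (9.89% of 3915), donor C had 524 (13.4%) and donor B had 811 (20.7%). Donor B thus gave the most differences, and it was the pair that spanned the sequencing pools and held the shallowest HC/PR-free library. The part of pool and depth in this was not tested. A change of 2-fold in at least 2 of the 3 pairs was met by 114 higher and 109 lower genes, while 196 genes moved at least 2-fold in opposite directions in different donors. In donors A and C, each within a pool, 24 genes were at least 2-fold higher and 31 at least 2-fold lower in both, whatever donor B showed. The limit of 2-fold separated similar genes. The gene nearest inside had a smallest log2 pair difference of 1.01 at 1313 CPM, and the nearest outside had 1.00, before rounding just under the limit, at 20.7 CPM.

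A gene that a single donor contradicted shows what the rule left out. It was chosen after its values were seen, as the largest fall among genes with a mean of at least 100 CPM. In rDM it stood at 124, 709 and 74.5 CPM in donors A, B and C, and without the steroids at 1.66, 5.32 and 86.0 CPM. Donors A and B lost nearly all reads, whereas donor C did not. Its log2 fold change of -4.05 (SE 0.89) had a limma adjusted p of 0.248. The largest rise at that level, also chosen after its values were seen, rested mostly on donor B, with 0, 0 and 0 CPM in rDM and 0, 649 and 17.2 CPM in the HC/PR-free medium.

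The other media bear on the 21 genes only side by side, since all 3 comparisons use the same rDM libraries. The same rule found 160 of 4125 genes (3.88%) without insulin and 373 of 4070 (9.16%) without rosiglitazone, against 21 of 3915 (0.536%) without the steroids. Without rosiglitazone, the fitted log2 fold change from rDM had the same direction in 8 of the 9 higher and 10 of the 12 lower genes. Of these, 5 higher and 4 lower genes passed an adjusted p of 0.05 by limma. Without insulin, the direction was the same in 6 of the 9 and 6 of the 12. The shared rDM libraries favour the same direction, and no share over all genes is set beside these counts. Nothing is therefore read from them. The most abundant higher gene had means of 3303 CPM in rDM, 15240 CPM in HC/PR-free medium, 15184 CPM in rosiglitazone-free medium and 5588 CPM in insulin-free medium. Its close means hide donors that differed both ways. Donors A, B and C stood at 10956, 14116 and 20650 CPM without the steroids and at 19118, 19386 and 7048 CPM without rosiglitazone. Direct contrasts between these media are given for the 4 named genes only. Another higher gene had means of 1248 CPM in rDM, 3502 CPM without the steroids, 3683 CPM without rosiglitazone and 1432 CPM without insulin. One of the lower genes had means of 125 CPM in rDM, 10.6 CPM without the steroids, 0 CPM without rosiglitazone and 140 CPM without insulin. In 2 of the 9 higher and 4 of the 12 lower genes, all 3 HC/PR-free libraries lay outside the range of the 9 other libraries. Of all 3915 genes, 29 (0.741%) lay above and 52 (1.33%) below the others in this way, and since the members were chosen on the difference from rDM, their larger share is not read as a result. ENSBTAG00000004293, ENSBTAG00000014713 and ENSBTAG00000019018 were among the 6 members outside that range.

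**Figure D3:**
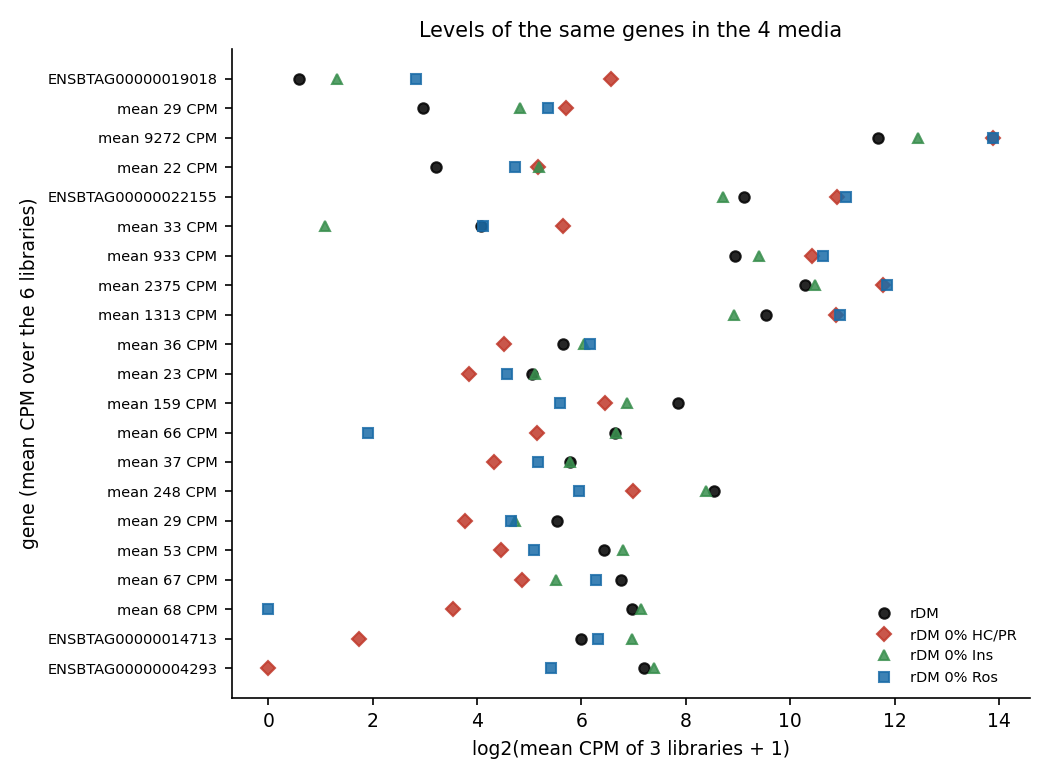
Level of the same 21 genes in the 4 media, as log2 of the mean CPM of 3 libraries plus 1, in the order of the pair differences; each symbol is a medium. The means of the abundant higher genes lie close together without the steroids and without rosiglitazone, although single donors can differ. ENSBTAG00000004293 is at 0 without the steroids only.

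For most well-measured genes, the data set a narrow limit on the effect. Of 1203 genes with a mean of at least 100 CPM over the 6 libraries, the 95% interval of the fold change lay wholly within 2-fold either way for 920 (76.5%), within 1.5-fold for 338 (28.1%) and within 4-fold for 1168 (97.1%). The median estimate at this level was a log2 fold change of 0.20 in size, and the median half-width of the interval was 0.51. Thus the farther end of the interval reached 1.65-fold for the median gene and 2.49-fold or less for 90% of genes. These limits hold for each gene taken alone. With intervals widened to hold for these 1203 genes together, 0 stayed within 1.5-fold, 14 within 2-fold and 863 within 4-fold.

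Limits depended strongly on the level of expression. Among the 314 genes at 500 CPM or more, 144 had an interval within 1.5-fold and 243 within 2-fold. Among the 2712 genes between 20 and 100 CPM, 918 stayed within 2-fold and 2503 within 4-fold. Among the 5352 genes tested below 20 CPM, 14 stayed within 2-fold and 1556 within 4-fold, so that for most of these a change of 4-fold remained within the interval. The median interval there reached 5.52-fold.

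**Figure D4:**
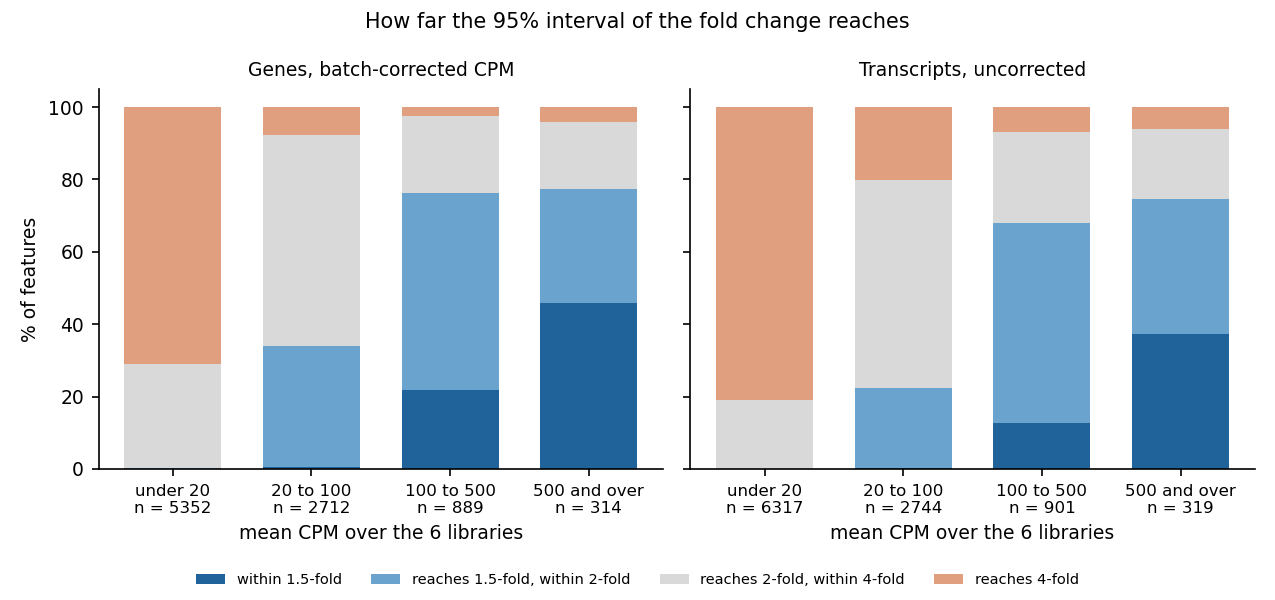
Share of features (%) whose 95% interval of the HC/PR-free to rDM fold change stays within 1.5-, 2- or 4-fold or reaches past 4-fold, by mean CPM over the 6 libraries, for batch-corrected genes and uncorrected transcripts. From 100 CPM upwards most intervals stay within 2-fold, and below 20 CPM most reach 4-fold.

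Among the 1203 well-measured genes, 283 had an interval that reached 2-fold, but in 3 it lay entirely past 2-fold. These 3 were ENSBTAG00000022155, the most abundant higher gene of the pair rule, and the gene that donor C contradicted. The interval left out 0 in 137 of the 1203 genes (11.4%), 46 of them higher and 91 lower without the steroids, so lower genes were the larger share. Under TMM scaling, which corrects for composition, the numbers were 34 higher and 92 lower of 1251. Point estimates past 2-fold were found for 10 higher and 23 lower genes.

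The 5 most abundant genes in rDM had mean levels from 10298 to 35202 CPM. The most abundant one stood at 30978, 33910 and 40718 CPM in rDM of donors A, B and C, and at 29227, 28120 and 30694 CPM without the steroids. The ranges did not overlap, but they lay close together, and the interval of the fold change was 0.602 to 1.17. The second ran from 0.474 to 1.06, with means of 32988 ± 1093 CPM in rDM and 23411 ± 1668 CPM without the steroids (SD, n = 3). The fold changes of the other 3 had intervals of 0.609 to 1.64, 0.634 to 1.11 and 0.685 to 1.16. In 4 of the 5, the HC/PR-free library was below the rDM library in every donor. In the most abundant, the second and the least abundant of the 5, all HC/PR-free libraries were below all rDM libraries. This was so in 10.7% of genes at 20 CPM or more. The second stood at 33216, 33949 and 31798 CPM in rDM and 21485, 24361 and 24388 CPM without the steroids. The least abundant of the 5 stood at 10140, 9827 and 10928 CPM in rDM and 9138, 9133 and 9232 CPM without the steroids. Of the 1203 genes at 100 CPM or more, 407 (33.8%) moved one way, up or down, in all 3 pairs, and nothing particular is read from the 4. None of the 5 passed an adjusted p of 0.05 by limma, and at most a fall to 0.474 of the rDM level or a rise of 1.64-fold lay within the intervals.

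**Figure D5:**
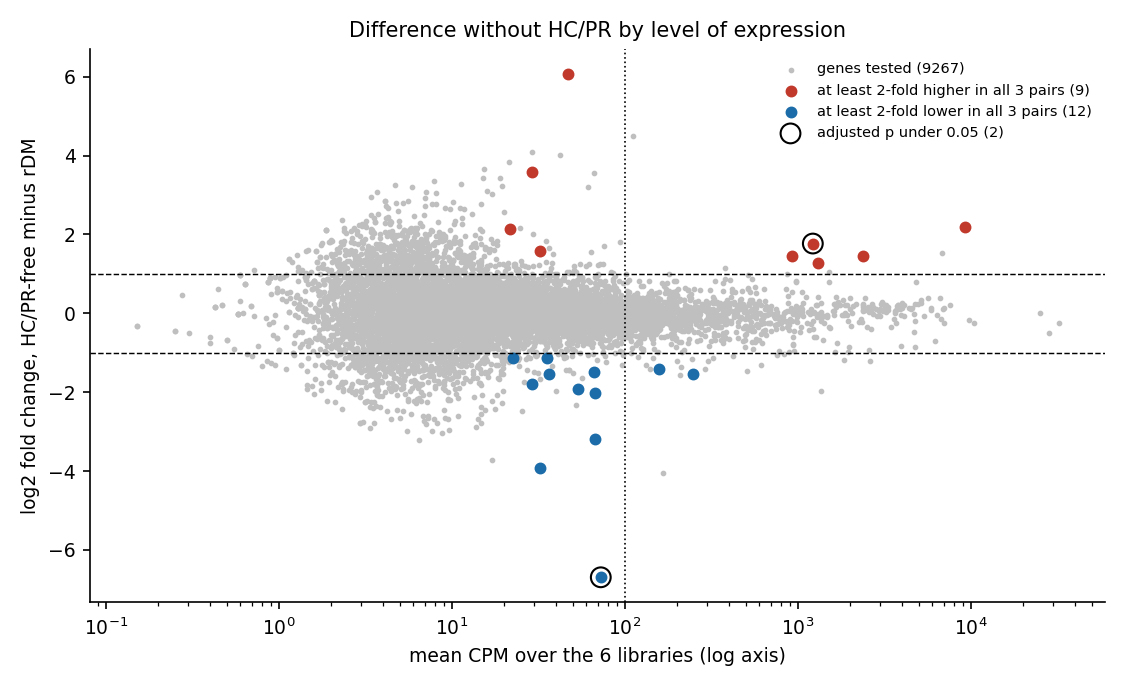
Log2 fold change of HC/PR-free minus rDM for the 9267 genes tested, against mean CPM over the 6 libraries on a log axis; the red and blue points are the 9 higher and 12 lower genes of the pair rule, and circles mark the 2 genes with an adjusted p under 0.05. Dashed lines mark 2-fold and the dotted line 100 CPM, past which few genes lie outside the 2-fold lines.

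The gene table had been corrected for batch, which is the donor, so the same comparison was made on estimated reads of transcripts that had not been corrected. At 100 CPM or more, the median difference between 2 donors within rDM was 0.188 to 0.229 log2 units in the corrected genes and 0.400 to 0.498 in the uncorrected transcripts. The differences between media within a donor, in contrast, were about the same size in both. The median absolute pair difference was 0.281, 0.376 and 0.311 for donors A, B and C in corrected genes, and 0.274, 0.396 and 0.304 in uncorrected transcripts. The median SD of the 3 pair differences was 0.335 and 0.346. The differences between donors were thus smaller in the corrected genes than in the uncorrected transcripts, while the spread of the paired differences was about the same. Genes are set against transcripts here, so the effect of correction cannot be told apart from that of using transcripts.

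The number of uncorrected transcripts called depended on the test. By edgeR's quasi-likelihood test with donor as a block, 0 of 5372 transcripts (0%) passed an adjusted p of 0.05, and 227 (4.23%) had an unadjusted p under 0.05. DESeq2 called 14, limma on log2(CPM + 1) called 1, and edgeR without a filter called 120. The transcript with the smallest p stood at 21.7, 205 and 137 CPM in rDM of donors A, B and C, and at 3.17, 15.5 and 11.2 CPM without the steroids. It was lower in every donor, with a log2 fold change of -3.40 (edgeR adjusted p = 0.291). The next stood at 12.1, 410 and 47.1 CPM in rDM and at 0 CPM in all 3 HC/PR-free libraries (edgeR adjusted p = 0.291). The pair rule found 9 higher (0.227%) and 15 lower (0.378%) of 3965 transcripts at 20 CPM or more, a share close to that of the corrected genes. For the other media it found 139 of 4182 without insulin and 302 of 4112 without rosiglitazone.

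The limits on effect size were also similar, though wider, in the uncorrected transcripts. Of 1220 transcripts at 100 CPM or more, 851 (69.8%) had an interval within 2-fold, 233 (19.1%) within 1.5-fold and 1138 (93.3%) within 4-fold. The median interval reached 1.73-fold. In the corrected genes, the media without insulin and without rosiglitazone had 795 of 1270 (62.6%) and 682 of 1245 (54.8%) well-measured genes within 2-fold of the same rDM libraries.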

How the data were processed

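Messenger RNA of 12 libraries (4 media, 3 donors) was sequenced as PCR-amplified cDNA on Nanopore flow cells. The authors aligned reads to the bovine transcriptome (ARS-UCD1.2) with minimap2, estimated counts per transcript with Salmon, summed them to genes, corrected these for batch with ComBat-seq and deposited a table of CPM per gene. Per-sample tables of expected (estimated) counts per transcript were deposited uncorrected. Every CPM column divided into whole reads (100% of values within 0.01 of a whole number). These recovered reads are counts after batch correction, not sequenced reads. They served for the count tests among the alternatives. Every value column used was mapped to a library, leaving 0 unmapped.

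The main test was limma 3.58.1 (R 4.3.3) on log2(CPM + 1), with donor as a block, over genes that reached 5 CPM in 3 or more of the 12 libraries. The prior spread was allowed to follow the mean level, a setting chosen to match earlier processing of these data. Rounded transcript counts were tested with edgeR 4.0.16 (TMM, filtered by its default rule) and, as an alternative, DESeq2 1.42.0. P-values were adjusted over all features by the Benjamini-Hochberg method. Intervals are at the 95% level. Those on read ratios are exact, treat the batch-adjusted counts as reads and cover counting error only. The scripts were tested on simulated data.

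Donor pairing comes from the study's design. Deviations from the medium mean of same-donor rDM and HC/PR-free libraries correlated across transcripts, which are not independent, at 0.560, 0.341 and 0.304 (donors A, B and C) before correction, and across corrected genes at -0.244, -0.345 and -0.291.

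Identifiers printed are those of the 2 genes called and, to make 2 in each direction, the largest mean pair difference among genes at least 2-fold apart the same way in 3 pairs at 20 CPM or more. The most abundant 5 genes in rDM were described too. The comparison, rules and lists were chosen with earlier results of these data known. Gene lists and cell type markers could not be matched to identifiers, and sequences and coordinates were not used here.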

Additional observations from a re-analysis of the deposited data

How the results depend on the processing

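The intervals of most genes below 20 CPM reach 4-fold, and how far depth or the spread between donors sets this was not tested. One donor can decide a call. The fit of the gene table without the replicate block called 3 genes against 2 with the pairing by donor, and the same fit put 964 rather than 920 well-measured genes within 2-fold. The 6 libraries alone gave 3 genes, and edgeR on recovered reads with the replicate block gave 2. The number of genes called was 1 with the sequencing pool added, with a pseudocount of 0.1, with TMM scaling, at an adjusted p under 0.01, and with no trend of the prior spread with level (chosen after seeing the data). It was 4 with a pseudocount of 10, 10 with no filter on low values, and 0 of 2284 by limma with at least 10 reads in every library, where 180 had an unadjusted p under 0.05. That filter removes ENSBTAG00000004293, which had 0 reads without the steroids, while ENSBTAG00000022155 kept its log2 fold change of 1.77. The number called was 82 by edgeR with no filter, 19 by DESeq2 with the replicate block and 24 by DESeq2 on medium alone. Leaving out a donor or 1 library gave 1 to 4. The median absolute log2 fold change was 0.21 with a pseudocount of 10 and 0.40 to 0.49 with a donor or library left out. Well-measured genes within 2-fold numbered 1412 from 50 CPM and 500 from 200 CPM, by construction, 693 with no trend, and 718 to 847 with a donor or library left out. The pair rule gave 12 genes from 50 CPM and 55 to 131 with a donor left out, when 2 pairs had to meet it. Transcripts called were 14 by DESeq2, 120 by edgeR without a filter and 1 by limma (chosen after seeing the data). ENSBTAG00000004293 passed in 21 of 22 alternatives and ENSBTAG00000022155 in 9 of 24. ENSBTAG00000014713 passed in 5 of 22 and ENSBTAG00000019018 in 7 of 21. Alternatives with no result for a gene are left out of its count. Among the 4 named genes, DESeq2 with the replicate block and the filter of 10 reads gave results for ENSBTAG00000022155 only. No direction reversed for the 4 named genes. For the other changes the cause was not tested. Reads summed per gene from transcripts were not run, as no map from transcripts to genes was used here.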
